A study of Mus musculus with 20 samples.

Results

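Heat shock and immediate early genes were followed across 5 groups of tissue recombinants, which are grafts made by joining epithelium with embryonic mesenchyme. The members are 36 listed gene symbols, 21 of heat shock genes and 15 of immediate early genes, and 35 of them have a row among the 23284 genes of the table. The symbol Nr4a1x matched no row. All 21 heat shock genes and 12 of the 14 immediate early genes found reached a log2 value of 5 in at least 4 libraries and were tested, so 33 of the 13456 tested genes are members. Fosb and Egr2 stayed under that minimum.

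Each group had 4 libraries of poly-A RNA, collected 3 months after implantation. Mouse seminal vesicle epithelium (SVE) or prostate epithelium (PE), from donors 2 months old, was combined with urogenital sinus mesenchyme of Sprague Dawley rats, the embryonic tissue that induces prostate. Per the labels, SVE and PE grafts carry wild-type NKX3.1, and the other 3 groups are SVE grafts with mNKX3.1, with UTY_sh, or with both. UTY, encoded on the Y chromosome, resembles the histone demethylase KDM6A. The epithelial cells are described as engineered, the donors once as C57Bl/6J and once as a hybrid of 129/SvImJ and C57Bl/6J. The vector is an altered pTRIPZ, which doxycycline in the drinking water switched on for 3 months. The labels do not say what the m of mNKX3.1 stands for (the protocol names a wild type and a point mutant), whether SVE and PE grafts carried an empty vector, or whether libraries came from separate animals. The p-values therefore measure the spread between these libraries, which may be technical. Replicate numbers only name the libraries.

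Heat shock proteins are chaperones that help other proteins fold and keep damaged ones from clumping. Most are also made without stress, and heat or misfolded protein raises many of them through the transcription factor HSF1, which binds heat shock elements, inverted repeats of the letters GAA. Immediate early genes are transcribed within minutes of a growth factor or stress signal without new protein synthesis, through elements such as the CArG box bound by serum response factor and the cAMP response element. Their products include transcription factors (the Fos, Jun and Egr families, Atf3) and proteins that end the response (the phosphatase Dusp1 and the mRNA decay factor Zfp36). Secretory epithelium such as prostate and seminal vesicle exports large amounts of protein.

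RefSeq promoter windows of GRCm38.p6, 250 bases before to 50 after a start, were at hand for 28 of the 36 symbols (38 windows). They are shown as sequence context, since the expression values say nothing of binding. A heat shock element, searched as GAANNTTC or TTCNNGAA on both strands, stood in at least 1 window of 12 of the 17 heat shock genes and 2 of the 11 immediate early genes with a window. Counted by window, it stood in 13 of 23 windows of heat shock genes and 2 of 15 of immediate early genes. Over all 32851 windows the share was 15.1%. The 2 forms can overlap, as they do in the first line of the pair that follows, and a match is a description of letters only.

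The first pair shows the elements of genes that were higher in PE, with the heat shock elements in capitals. Such elements were also found for Bag3 and Fkbp4, which were lower in PE, and for uncalled genes such as Dnaja1 and Hspb8. Hsph1 encodes an HSP110 exchange factor (chr5:149636352-149636381, minus strand), and Hspe1 encodes the mitochondrial co-chaperonin HSP10 (chr1:55088053-55088082, plus strand). The window of Hspd1, which encodes the partner chaperonin HSP60 and is transcribed the other way from the same stretch, holds the same elements.
Hspe1: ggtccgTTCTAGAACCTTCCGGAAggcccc
Hsph1: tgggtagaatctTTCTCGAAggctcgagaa

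The stress-inducible HSP70 genes Hspa1a (chr17:34972157-34972276, minus strand) and Hspa1b (chr17:34959239-34959358, minus strand) are shown together because their last 120 bases before the start are identical at 119 positions (99.2%). Reads of these 2 near-identical genes may be split between them. Hspb1, which encodes the small heat shock protein HSP27, is set beside them (chr5:135887799-135887918, plus strand). Capitals again mark the heat shock elements.
Hspa1a: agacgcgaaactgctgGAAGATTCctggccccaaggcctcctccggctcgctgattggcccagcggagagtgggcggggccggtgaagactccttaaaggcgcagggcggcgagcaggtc
Hspa1b: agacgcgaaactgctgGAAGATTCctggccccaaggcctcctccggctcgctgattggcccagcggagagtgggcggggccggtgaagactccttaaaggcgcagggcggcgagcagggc
Hspb1: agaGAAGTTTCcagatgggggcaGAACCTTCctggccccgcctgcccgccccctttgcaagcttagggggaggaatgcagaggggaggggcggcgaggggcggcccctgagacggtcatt

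Stip1, which encodes the adaptor HOP between HSP70 and HSP90, has none of the searched letters but a TATA box, TATAAA, in capitals (chr19:7040027-7040146, minus strand). TATAAA was found in 13.6% of all windows.
Stip1: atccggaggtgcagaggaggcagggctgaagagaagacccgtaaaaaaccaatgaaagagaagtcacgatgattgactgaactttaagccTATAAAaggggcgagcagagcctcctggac

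Among the immediate early genes, the cAMP response element TGACGTCA is in capitals for Btg2 (chr1:134079156-134079335, minus strand) and Dusp1 (chr17:26508520-26508652, minus strand), and the CArG box for Zfp36 (chr7:28379267-28379296, minus strand). Btg2 encodes an antiproliferative protein that promotes mRNA deadenylation. Of the 38 member windows, TGACGTCA stood in 2, those of Btg2 and Dusp1, and the CArG box in 5, those of Zfp36 and Egr2. The other member windows held neither. The shares of all windows were 1.79% for TGACGTCA and 1.63% for the CArG box.
Btg2: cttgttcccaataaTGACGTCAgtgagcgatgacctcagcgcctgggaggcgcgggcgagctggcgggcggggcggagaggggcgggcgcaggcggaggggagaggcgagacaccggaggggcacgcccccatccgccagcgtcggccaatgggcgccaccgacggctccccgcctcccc
Dusp1: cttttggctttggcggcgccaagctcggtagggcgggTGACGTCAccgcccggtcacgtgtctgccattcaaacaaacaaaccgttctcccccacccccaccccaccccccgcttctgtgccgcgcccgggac
Zfp36: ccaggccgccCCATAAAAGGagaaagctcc

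All values are the deposited log2 expression values, and a difference of 1 is a doubling. Depth was about 14930000 to 20820000 reads per library in PE, 15470000 to 21860000 in mNKX3.1 and 20260000 to 29810000 in the other 3 groups, and the 50 most abundant genes took 35.6% to 38.2% of the reads in PE and mNKX3.1 against 58.0% to 67.8% elsewhere. Rat reads cannot be separated from mouse reads in the table, and in whole grafts fewer cells of a type cannot be told apart from less RNA per cell. Smooth muscle markers were lower in PE than in SVE for 10 of 10 genes (the libraries' mean over the list was 11.9 to 12.4 in PE and 13.0 to 13.7 in SVE), luminal markers higher for 5 of 5, basal markers lower for 3 of 4 and higher for 1, fibroblast markers lower for 4 of 8, endothelial markers lower for 3 and higher for 1 of 6, and leukocyte markers higher for 1 of the 5 tested. The kidney marker Slc12a1 was near the floor of the scale in every group, and Umod and Slc34a1 in every group but mNKX3.1, while the 1 kidney marker of 6 that passed the filter was lower in PE (-1.97). The part of cell content in the results was not tested. Uty, the hairpin's target by its label, read 9.04 to 9.55 in SVE, 10.06 to 10.45 in PE and mNKX3.1, 9.09 to 9.29 in grafts with both constructs and 8.98 to 9.52 with the hairpin alone, so both hairpin groups overlapped SVE. Group names below are those of the labels.

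Hsph1, Hsp90ab1, Hspa8, Hspd1 and Stip1 were higher in prostate grafts than in seminal vesicle grafts, and Bag3 and Fkbp4 were lower. Of the 21 heat shock genes, 11 were higher in PE than in SVE, 2 were lower and 8 did not pass the test (limma, Benjamini-Hochberg adjusted p below 0.05 over all tested genes). In this comparison 62.1% of all tested genes passed, 31.8% higher and 30.4% lower, so that 13 of 21 passing is near the share of all genes. The median difference of the 21 was 0.33, against 0.02 over all tested genes. Libraries of the 2 groups did not overlap for 10 of the 21, against 48.9% of all tested genes.

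Hsph1, the HSP110 family exchange factor that recharges HSP70, differed most. It read 9.97, 9.49, 8.68 and 8.75 in SVE libraries 1 to 4 and 10.99, 11.20, 10.49 and 11.17 in PE. Every PE library was above every SVE library, and SVE libraries 1 and 2 stood above 3 and 4. The difference was 1.74 (SE 0.26, 3.34-fold, adjusted p 1.55e-05).

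Hspa4, another HSP110 family member, was 0.48 higher in PE (SE 0.06), and the related Hspa4l was not called (difference -0.10). Hspa8, the constitutive HSP70 of the cytosol, read 10.28, 9.93, 9.96 and 10.02 in SVE and 10.80, 11.17, 10.82 and 10.93 in PE. Its groups were apart, with a difference of 0.88 (SE 0.09, 1.84-fold, adjusted p 1.49e-07). Processed pseudogenes of Hspa8, Hspd1 and Hspe1 are known in the mouse, and the counting of reads that fit several places is not stated in the sources used here.

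The stress-inducible HSP70 genes varied widely and were not called with all libraries. Hspa1b read 9.30, 8.74, 8.92 and 8.48 in SVE and 7.46, 9.15, 8.33 and 8.74 in PE, and Hspa1a read 8.37, 7.64, 7.89 and 7.46 in SVE and 6.68, 8.14, 7.30 and 7.83 in PE. The groups overlapped for both, and PE libraries 1 and 2 were the lowest and the highest of PE for each gene. The differences were -0.44 for Hspa1b and -0.35 for Hspa1a (SE 0.26 for each), neither called. Without PE replicate 2, Hspa1b was called lower (-0.68, adjusted p 0.0242). Because reads may be split between the pair, their linear sum was also compared, and its log2 was 9.44 ± 0.36 (SD, n = 4) in SVE and 9.03 ± 0.69 (SD, n = 4) in PE. An exact two-sided permutation test gave p = 0.371 (0.743 adjusted over 6 group comparisons), where 0.0286 is the smallest p that 4 against 4 allows. Over the 6 comparisons this p ran from 0.229 to 0.971.

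Both cytosolic HSP90 genes were higher in PE. Hsp90ab1, the constitutive form, read 13.90, 13.48, 13.51 and 13.49 in SVE and 14.85, 14.70, 14.47 and 14.72 in PE. The groups were apart, with SVE library 1 the nearest to PE, and the difference was 1.09 (SE 0.11, 2.13-fold, adjusted p 1.26e-07). Hsp90aa1, the form more readily induced by stress, was 0.38 higher (SE 0.06).

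The HSP90 co-chaperones were mixed. Stip1 read 9.99, 9.67, 9.70 and 9.73 in SVE and 10.45, 10.61, 10.22 and 10.57 in PE, without overlap, a difference of 0.69 (SE 0.09, adjusted p 2.52e-06). Ahsa1, which stimulates the HSP90 ATPase, was 0.33 higher (SE 0.05) and Chordc1, which binds HSP90, was 0.39 higher (SE 0.16, adjusted p 0.0389). Fkbp4, the immunophilin of steroid receptor complexes, was lower by -0.18 (SE 0.06, adjusted p 0.0150). The Chordc1 call was lost without SVE replicate 3 or 4, or PE replicate 2, 3 or 4, with adjusted p up to 0.140 over its alternatives, and the Fkbp4 call without PE replicate 3, which left 1 lower heat shock gene, Bag3.

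The mitochondrial chaperonin pair moved together. Hspd1 read 9.84, 9.63, 9.46 and 9.45 in SVE and 10.31, 10.21, 10.26 and 10.40 in PE, 0.70 higher (SE 0.08, 1.62-fold, adjusted p 7.53e-07). Hspe1 read 7.49, 7.18, 7.31 and 7.26 in SVE and 7.98, 7.76, 7.63 and 7.98 in PE, 0.53 higher (SE 0.10, adjusted p 1.24e-04). The groups did not overlap for either gene.

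The J-domain proteins, which hand clients to HSP70, were not called: Dnaja1 differed by 0.23, Dnajb1 by 0.16 and Dnajb4 by less than 0.01, with a sign that changed under median centring and quantile normalisation. Hsf1 itself was not called (-0.07). Hspb1 was 0.47 higher in PE (SE 0.12, adjusted p 0.00272), while Hspb8, its relative that works with Bag3 in autophagy, differed by 0.01, which changed sign under quantile normalisation. Bag3, the HSP70 co-chaperone of that pathway, read 10.10, 9.95, 10.06 and 9.76 in SVE and 9.56, 9.71, 9.44 and 9.58 in PE. All 4 PE libraries were below SVE, and the difference was -0.40 (SE 0.09, adjusted p 6.27e-04).

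**Figure D1:**
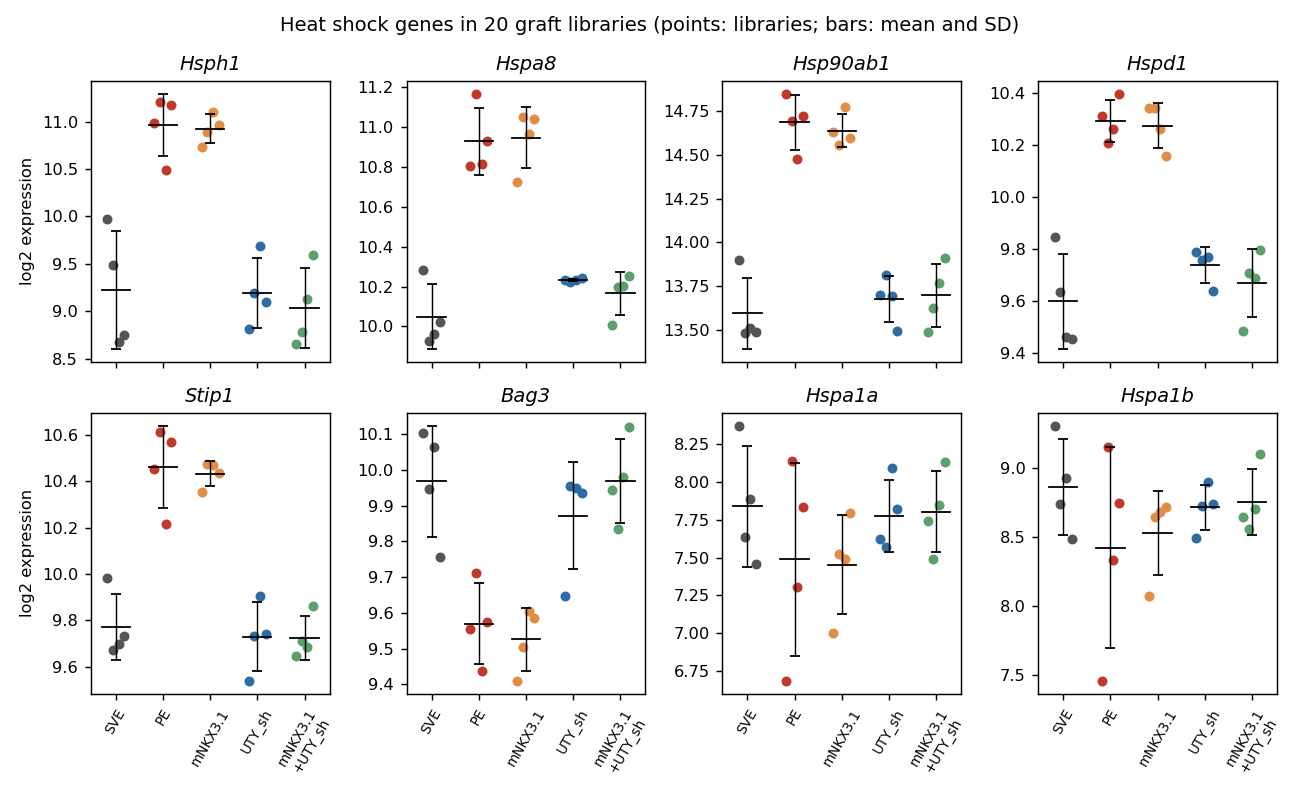
Log2 expression (y axis, own scale per gene) of 8 heat shock genes in the 20 libraries, by group (x axis); each point is a library and the bars give the mean and SD of 4 libraries. Hsph1, Hspa8, Hsp90ab1, Hspd1 and Stip1 are high in PE and mNKX3.1 and lower in the other 3 groups, Bag3 is the other way round, and Hspa1a and Hspa1b overlap in all groups.

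Immediate early genes were divided. Of the 12 tested, 2 were higher in PE than in SVE, 2 were lower and 8 were not called, so 4 of 12 were called beside 62.1% of all tested genes. Their median difference was -0.02, beside 0.02 over all tested genes, and the libraries of the 2 groups were apart for 2 of the 12, Ier3 and Myc.

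Ier3, an early response gene that modulates survival signalling, read 6.53, 6.21, 6.47 and 6.29 in SVE and 6.995, 6.87, 6.65 and 6.81 in PE. The groups were apart, with a difference of 0.46 (SE 0.11, adjusted p 0.00173). Atf3, a stress-induced repressor of the ATF family, read 8.74, 8.74, 8.89 and 9.07 in SVE and 9.12, 9.87, 8.87 and 9.56 in PE. PE library 3 lay within SVE, and the difference was 0.49 (SE 0.17, adjusted p 0.0196). The Atf3 call was lost without SVE replicate 2 or PE replicate 2 or 4, which left Ier3 as the 1 higher gene, and Atf3 fell to 0.32 without PE replicate 2 (adjusted p 0.0905).

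Btg2 read 9.26, 9.29, 9.47 and 9.66 in SVE and 8.69, 8.84, 9.34 and 8.77 in PE. PE library 3 reached into the SVE range and the other 3 PE libraries were below it, and the difference was -0.51 (SE 0.13, adjusted p 0.00194). Myc, the growth-promoting transcription factor, read 9.99, 10.05, 9.996 and 10.11 in SVE and 9.97, 9.72, 9.84 and 9.73 in PE. All PE libraries were below SVE, by a difference of -0.22 (SE 0.07, adjusted p 0.00926).

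The core AP-1 and Egr genes were not called. Fos differed by -0.14, Jun by -0.16, Junb by 0.12 and Jund by 0.09, and Fos read 6.26 to 6.76 in SVE and 6.54, 6.76, 5.55 and 6.58 in PE, with PE library 3 far below the rest. Egr1 read 6.14, 6.96, 6.71 and 6.66 in SVE and 7.85, 6.76, 6.82 and 7.42 in PE. Its difference of 0.59 (SE 0.34) came with a 95% interval of -0.12 to 1.30. Ier2 (-0.19), Dusp1 (0.12) and Zfp36 (-0.20) also missed the test. Ier2 was called lower without SVE replicate 2 (-0.23) or PE replicate 3 (-0.28) and under quantile normalisation (-0.21), and Zfp36 without PE replicate 2 (-0.31, adjusted p 0.00300).

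Fosb and Egr2, which encode relatives of Fos and Egr1 and were not tested in the main fit, were low everywhere. Fosb ranged from 3.71 to 5.20 over the 20 libraries, with its widest spread in SVE (4.44, 5.20, 3.82 and 4.36). Egr2 ranged from 2.09 to 4.41, both ends of that range in UTY_sh (3.63, 4.41, 2.09 and 3.49). At these levels, near the floor of the scale, differences are compressed.

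**Figure D2:**
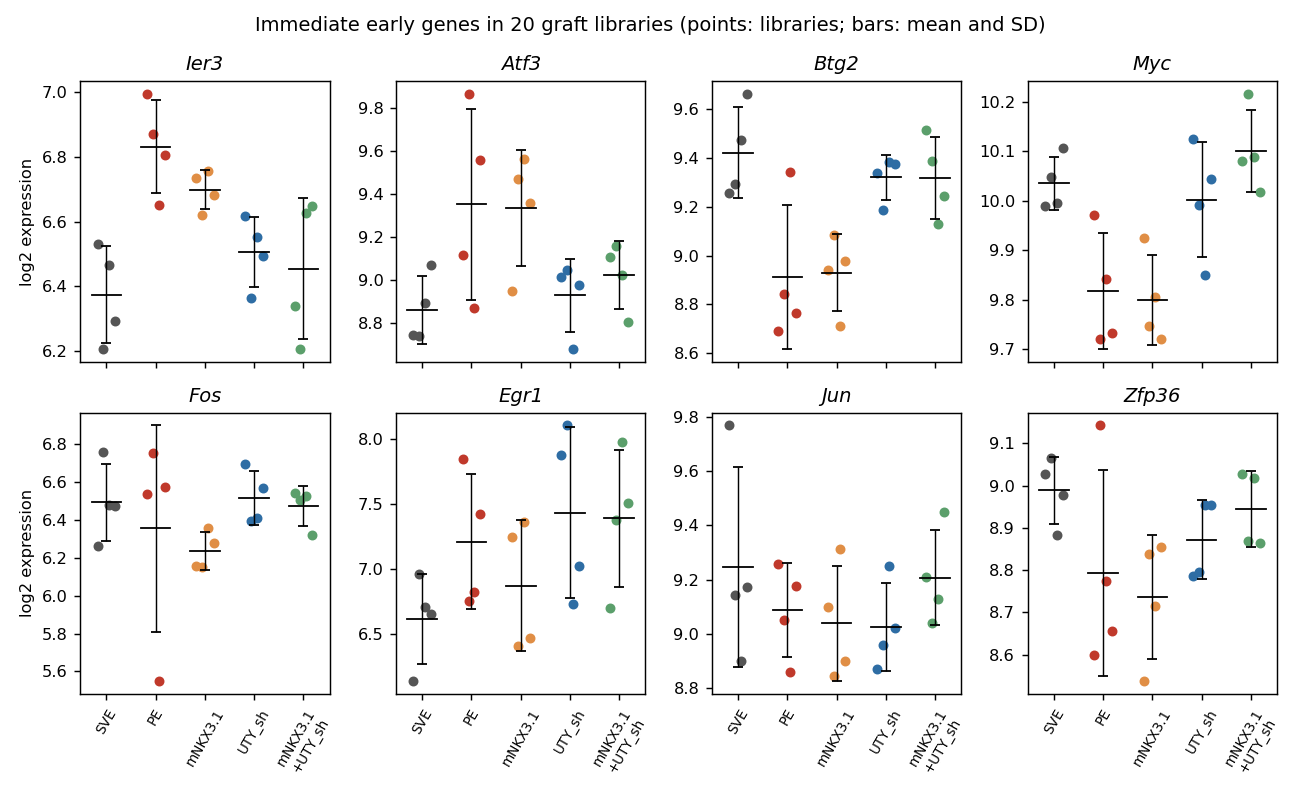
Log2 expression (y axis, own scale per gene) of 8 immediate early genes in the 20 libraries by group (x axis); points are libraries, bars the mean and SD of 4 libraries. Ier3 is highest and Btg2 and Myc are low in PE and mNKX3.1, while for Fos, Egr1 and Jun each group overlaps SVE, with 1 low PE library for Fos.

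Seminal vesicle grafts labelled mNKX3.1 were higher than SVE in Hsph1, Hsp90ab1 and Hspa8 and lower in Bag3 and Btg2. The comparison shares its SVE libraries with the previous one, so the values are set side by side. Of the heat shock genes, 11 were higher, 2 were lower and 8 were not called, where 62.3% of all tested genes were called (31.7% higher, 30.6% lower), and the median difference was 0.29 against 0.02 over all. Of the immediate early genes, 2 were higher, 3 were lower and 7 were not called. The groups were apart for 11 of the 21 and 4 of the 12, against 54.9% of all tested genes. Smooth muscle markers were lower in mNKX3.1 for 10 of 10, basal for 3 of 4, fibroblast for 5 of 8 and endothelial for 4 of 6, and luminal markers were higher for 5 of 5. Their part in the result was not tested.

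Hsph1 read 10.74, 10.89, 11.10 and 10.96 in mNKX3.1, 1.70 above SVE (SE 0.26, 3.25-fold, adjusted p 2.03e-05), beside 1.74 in PE. Hsp90ab1 read 14.63, 14.56, 14.77 and 14.60 and was 1.04 above SVE, and Hspa8 read 10.72, 11.05, 10.97 and 11.04 and was 0.90 above. Each of these was above every SVE library.

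Hspd1 read 10.34, 10.34, 10.26 and 10.16 (0.68 above SVE) and Stip1 read 10.36, 10.47, 10.47 and 10.44 (0.66 above). The other calls were Hspe1 (0.63), Hspa4 (0.46), Chordc1 (0.43), Hsp90aa1 (0.40), Hspb1 (0.35) and Ahsa1 (0.29) higher and Bag3 (-0.44) and Fkbp4 (-0.24) lower. Hspb1 lost its call without SVE replicate 2 or 4 or mNKX3.1 replicate 1 or 3, and Chordc1 without SVE replicate 3 or 4 or mNKX3.1 replicate 2 or 4. Their adjusted p then reached 0.0868 and 0.0883.

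Of the immediate early genes, Btg2 read 8.94, 9.09, 8.71 and 8.98 in mNKX3.1, below every SVE library (-0.49, SE 0.13, adjusted p 0.00261). Atf3 read 8.95, 9.47, 9.56 and 9.36 (0.47, SE 0.17, adjusted p 0.0237), and its first library lay within SVE. Ier3 read 6.73, 6.62, 6.76 and 6.68, above every SVE library (0.32, SE 0.11, adjusted p 0.0175).

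Myc read 9.93, 9.75, 9.81 and 9.72 (-0.24, adjusted p 0.00563) and Zfp36 read 8.54, 8.84, 8.72 and 8.86, against 9.03, 9.07, 8.88 and 8.98 in SVE (-0.25, adjusted p 0.0337). Both were below every SVE library. Calls here leaned on single libraries: the higher count was 0 without SVE replicate 2 and 1 without SVE replicate 1 or mNKX3.1 replicate 2 or 3, and the Zfp36 call was lost without SVE replicate 1, 2 or 4 or mNKX3.1 replicate 1 or 3.

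No member was called between mNKX3.1 and PE, and neither was any other gene (limma, 0% of 13456). An unadjusted p below 0.05 was found for 0.483% of genes and none of the 33 members. Unchanged independent groups would give about 5%, and the reason for the lower share was not tested. Differences ran from -0.12 (Hspb1) to 0.13 (Dnajb4) for heat shock genes and from -0.34 (Egr1) to 0.04 (Ier2) for immediate early genes. The 95% interval was -0.59 to 0.51 for Hsph1 and -1.05 to 0.37 for Egr1, so differences of that size are not excluded by the intervals. All 4 mNKX3.1 libraries lay inside the PE range for 17 of the 33 members (51.5%), beside 48.8% of all tested genes.

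Grafts labelled with both the construct and the hairpin had heat shock gene levels near SVE. Against mNKX3.1, 11 of the 21 heat shock genes were lower, 3 were higher and 7 were not called, in a comparison where 63.8% of all tested genes were called (32.4% lower, 31.4% higher). The median difference was -0.30, against -0.02 over all. Groups were apart for 15 of the 21 (12 lower, 3 higher), beside 61.9% of all tested genes. The mNKX3.1 libraries are also those of the previous comparisons. Smooth muscle markers were higher in mNKX3.1+UTY_sh for 10 of 10 (median 1.37), basal markers for 3 of 4 and fibroblast markers for 4 of 8, and luminal markers were lower for 3 of 5. Their part in the result was not tested.

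Hsph1 read 8.65, 8.78, 9.12 and 9.59 in mNKX3.1+UTY_sh, all below mNKX3.1, with a difference of -1.89 (SE 0.26, 0.270-fold, adjusted p 5.90e-06). Hsp90ab1 read 13.49, 13.63, 13.77 and 13.91 (-0.94, SE 0.11). Hspa8 read 10.01, 10.20, 10.20 and 10.25 (-0.78, SE 0.09). For Hsph1 and Hsp90ab1 library 4 was the highest of its group, and no library of the group reached mNKX3.1.

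Hspe1 read 8.04, 7.87, 7.99 and 7.85 in mNKX3.1 and 7.04, 7.24, 7.12 and 7.19 in mNKX3.1+UTY_sh, a difference of -0.79 (SE 0.10, adjusted p 1.38e-06). Stip1 read 9.65, 9.71, 9.68 and 9.86 in mNKX3.1+UTY_sh (-0.71, SE 0.09). The groups were apart for both. The other lower genes were Chordc1 (-0.69), Hspd1 (-0.61), Hspa4 (-0.50), Hsp90aa1 (-0.49), Hspb1 (-0.30, adjusted p 0.0437) and Ahsa1 (-0.24).

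Bag3 (0.44), Fkbp4 (0.34) and Hsf1 (0.15, adjusted p 0.0354) were higher in mNKX3.1+UTY_sh. Dnaja1 (-0.33) was not called in the main fit, though its groups were apart. It was called lower without mNKX3.1 replicate 1 (-0.39), under median centring and quantile normalisation, and with the compared groups alone. Dnajb4 was called lower without mNKX3.1 replicate 3 (-0.39). The Hsf1 call was lost without mNKX3.1 replicate 1 or 2 or mNKX3.1+UTY_sh replicate 4. The Hspb1 call was lost without mNKX3.1 replicate 1 or 3 or any 1 library of mNKX3.1+UTY_sh, with adjusted p up to 0.140 over its alternatives.

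Of the 12 immediate early genes, 3 were higher in mNKX3.1+UTY_sh than in mNKX3.1, none was lower by limma (5 of the 12 had an unadjusted p below 0.05, as had 67.0% of all tested genes) and 9 were not called. Btg2 read 9.51, 9.39, 9.13 and 9.24 in mNKX3.1+UTY_sh (0.39, SE 0.13, adjusted p 0.0124) and Myc read 10.08, 10.22, 10.09 and 10.02 (0.30, SE 0.07, adjusted p 7.89e-04). Ier2, an early response gene of the nucleus, read 8.67, 8.63, 8.57 and 8.61 in mNKX3.1 and 8.76, 8.95, 8.99 and 8.82 in mNKX3.1+UTY_sh (0.26, SE 0.09, adjusted p 0.0163). The libraries were apart for all 3 and for Zfp36 (0.21), 4 of the 12, beside 61.9% of all tested genes. Zfp36 was called higher only with the compared groups alone. Without mNKX3.1+UTY_sh replicate 3 the Ier2 call was lost (adjusted p 0.0548), and 1 gene was called lower without mNKX3.1 replicate 1 (Atf3) or mNKX3.1+UTY_sh replicate 3 or 4 (Ier3).

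**Figure D3:**
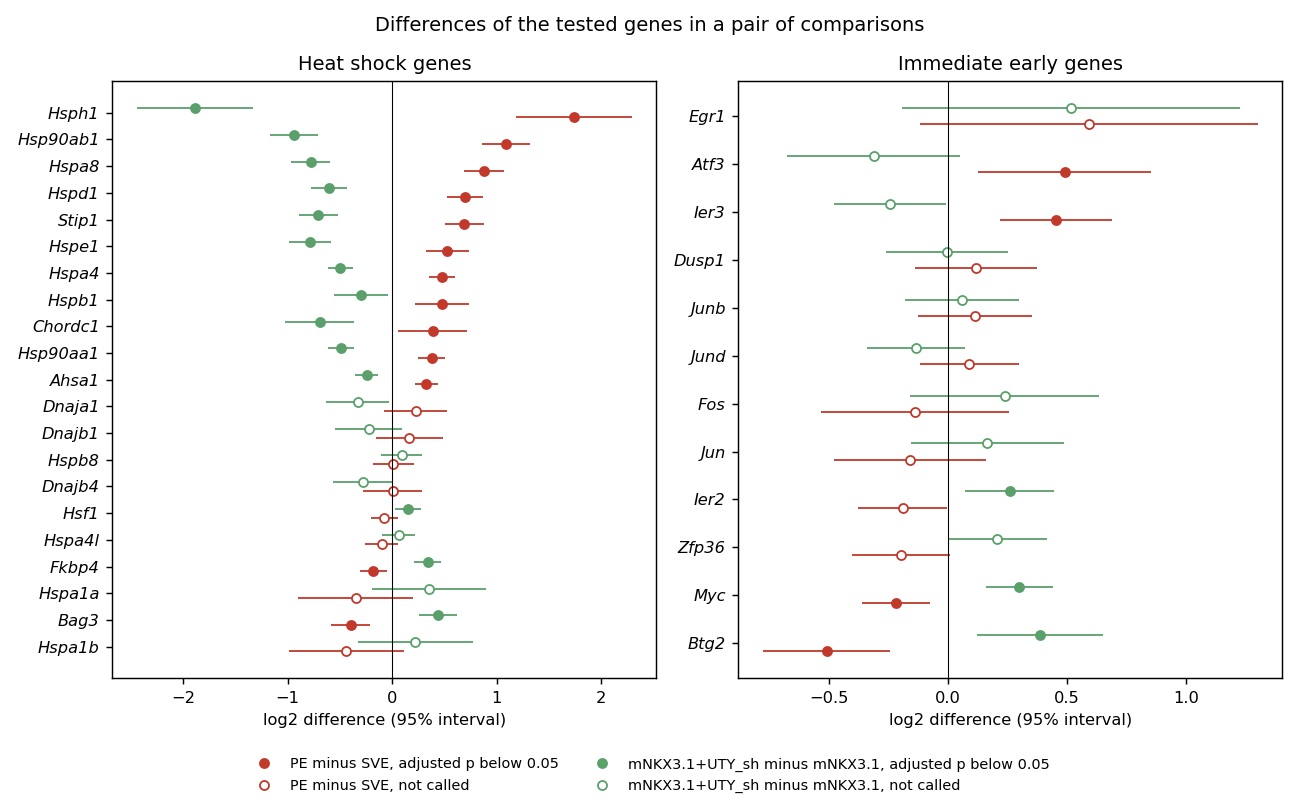
Log2 difference (x axis) with its 95% interval for each of the 33 tested members (y axis), PE minus SVE in red and mNKX3.1+UTY_sh minus mNKX3.1 in green; filled points passed the test. Hsph1 lies farthest out in both directions, at 1.74 and -1.89, and most immediate early genes have intervals that include 0 in at least 1 comparison.

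Neither hairpin group differed from SVE in a member that passed the test. In UTY_sh against SVE no gene was called by limma (0% of 13456), and 2.35% of genes had an unadjusted p below 0.05, among them 1 heat shock gene, Hspe1 (-0.22), and 1 immediate early gene, Egr1 (0.82). In mNKX3.1+UTY_sh against SVE no gene was called either, and 4.14% had an unadjusted p below 0.05, with 0 of the 21 heat shock genes and again Egr1 (0.77) among the 12. Egr1 read 7.87, 8.10, 6.73 and 7.03 in UTY_sh, 6.70, 7.38, 7.97 and 7.51 in mNKX3.1+UTY_sh and 7.25, 6.41, 7.36 and 6.47 in mNKX3.1. For all 33 members the libraries of each hairpin group overlapped those of SVE, while 1.23% of all tested genes did not overlap with the hairpin alone and 2.43% with both. These 2 comparisons share the SVE libraries. Their shares of unadjusted p below 0.05 were under the 5% expected in unchanged independent groups.

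Hsph1 read 8.81, 9.19, 9.69 and 9.09 in UTY_sh, inside the SVE range. The 95% interval of its difference from SVE was -0.58 to 0.53 there, and -0.74 to 0.37 for mNKX3.1+UTY_sh, with both upper bounds below the 1.70 of mNKX3.1. All differences of heat shock genes from SVE lay between -0.22 and 0.18 with the hairpin alone and between -0.26 and 0.12 with both.

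The hairpin's difference was then compared with and without the construct, as an interaction in the same limma model. This value was called for 12 heat shock genes (10 lower, 2 higher) and 2 immediate early genes, both higher, where 48.1% of all tested genes were called (24.0% in each direction). It was -1.86 for Hsph1 (SE 0.37, adjusted p 4.99e-04), -1.02 for Hsp90ab1 (SE 0.16), -0.96 for Hspa8 (SE 0.13), -0.75 for Hspd1 (SE 0.12) and -0.67 for Stip1 (SE 0.13). Bag3 (0.54) and Fkbp4 (0.29) were the heat shock genes with a higher value, and Btg2 (0.49) and Myc (0.33) the immediate early genes. The group levels behind these values are the ones given above. The Btg2 call was lost without SVE replicate 3 or 4, mNKX3.1 replicate 3, UTY_sh replicate 2 or mNKX3.1+UTY_sh replicate 1 or 2, with adjusted p up to 0.0721, and Ier3 was called lower without SVE replicate 1, UTY_sh replicate 2 or mNKX3.1+UTY_sh replicate 3 or 4.

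Within groups, 1 library was often the highest for many heat shock genes at once. SVE library 1 was the highest of its group for 16 of the 21 (28.6% of all tested genes) and mNKX3.1+UTY_sh library 4 for 16 of the 21 (31.0%). UTY_sh library 3 led for 10 of the 21 (29.2%), and so did PE library 2 (23.8%). The first 3 of these libraries, but not PE library 2 (17.86 against 18.003 in PE library 4), were also the richest of their groups in Pbsn, which encodes the prostate secretory protein probasin, at 15.71, 15.06 and 14.81, while the other libraries of the 3 groups read 5.29 to 13.81 and those of PE and mNKX3.1 17.37 to 18.003. Without these 3 libraries, a choice made after seeing the data, the counts against SVE in PE stayed at 11 higher and 2 lower heat shock genes and 2 and 2 immediate early genes, and Hsph1 differed by 1.99. In mNKX3.1+UTY_sh against mNKX3.1 they were 13 lower and 2 higher heat shock genes, with Hsph1 at -2.07. Dnaja1 (-0.37) and Dnajb1 (-0.31) were newly called lower there, and the Hsf1 call was lost. In mNKX3.1 against SVE the counts were 12 higher and 2 lower heat shock genes beside 1 higher and 2 lower immediate early genes.

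**Figure D4:**
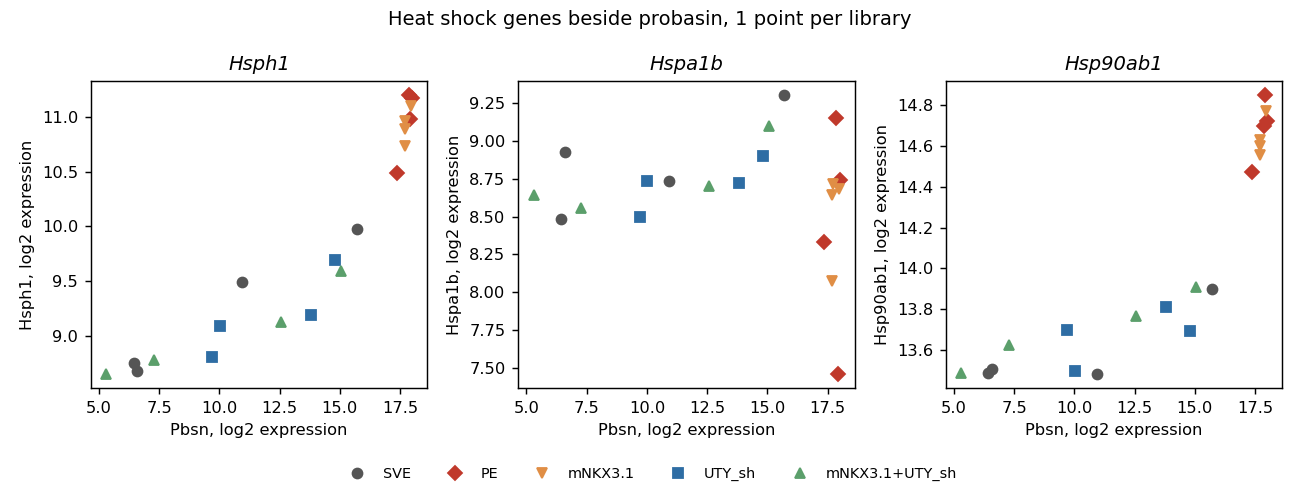
Log2 expression of Hsph1, Hspa1b and Hsp90ab1 (y axes) against that of Pbsn (x axis) in the 20 libraries, coloured by group. PE and mNKX3.1 form a cluster at Pbsn of 17.37 to 18.003, and the other 3 groups spread from 5.29 to 15.71; SVE library 1 and mNKX3.1+UTY_sh library 4 have the highest Hsph1 and Hsp90ab1 of their groups.

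Among immediate early genes, mNKX3.1 library 3 was the highest of its group for 8 of the 12 (34.7% of all tested genes). Over all tested genes the median SD within a group was largest in SVE (0.166), then PE (0.149), UTY_sh (0.133), mNKX3.1+UTY_sh (0.117) and mNKX3.1 (0.109). Among heat shock genes the widest range within a group was 1.69 for Hspa1b and 1.45 for Hspa1a, both in PE, and among tested immediate early genes 1.37 for Egr1 in UTY_sh.

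Other chaperone genes, from lists that hold no member, are given with their counts in PE against SVE, to be read beside the 62.1% of all tested genes that were called (31.8% higher, 30.4% lower). Of the 12 endoplasmic reticulum chaperones, 11 were higher and 1 was lower, with a median difference of 1.11. Pdia4, a disulfide isomerase, was 1.85 higher, Dnajc3, an endoplasmic reticulum J-domain protein, 1.46 and Sdf2l1, a partner of BiP, 1.39. Of the 8 subunits of the cytosolic chaperonin TRiC, which folds actin and tubulin, 7 were higher and 1 was not called, led by Cct3 (0.78), Cct8 (0.45) and Tcp1 (0.37). Of the 8 mitochondrial chaperones and proteases, 4 were higher, among them Clpx (0.42), Grpel1 (0.31) and Trap1 (0.24).

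Of 11 other J-domain proteins, 6 were higher in PE and 1 was lower, a share of calls near that of all genes. Dnaja4 read 8.54, 7.65, 7.08 and 7.03 in SVE and 9.94, 9.84, 9.56 and 9.86 in PE, a difference of 2.23 (SE 0.27, adjusted p 1.22e-06). No SVE library reached PE, and SVE library 1 was nearest. Dnajb14 (0.50) and Dnajc7 (0.38) were higher as well. In the HSF1 regulator list, 4 of 6 were higher, with Stub1, which encodes the ubiquitin ligase CHIP, at 0.47, Hsf2 at 0.46 and Hsbp1, a binding protein of HSF1, at 0.41.

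Of 11 further HSP70 family genes and exchange factors, 3 were higher and 5 were lower, with Hspa13 at 0.73, Hspa12b at -0.54 and Bag1 at -0.51. Of 9 further HSP90 co-chaperones, 5 were higher and 2 were lower, with Ptges3, the p23 co-chaperone, at 0.50, Ppp5c at 0.30 and Unc45a, a myosin chaperone, at -0.30.

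Small heat shock proteins outside the member list went mostly the other way: 4 of 5 were lower in PE and 1 was higher. Cryab, alpha-B crystallin, read 9.12, 9.52, 9.55 and 9.62 in SVE and 7.57, 7.43, 7.001 and 7.17 in PE, a difference of -2.16 (SE 0.13, adjusted p 1.32e-10). Hspb2 (-1.82) and Hspb7 (-1.15) fell too, and the groups were apart for all 3. These genes are known for high expression in muscle, and the mean of the 10 smooth muscle markers was 12.1 in PE and 12.0 in mNKX3.1, but 13.5 in mNKX3.1+UTY_sh, 13.4 in UTY_sh and 13.3 in SVE. The part of muscle content in these differences was not tested.

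Among 29 other immediate early genes tested, 7 were higher in PE and 13 were lower, and the largest values were beyond any of the members. Of all tested genes 62.1% were called (31.8% higher, 30.4% lower). Nr4a3, an orphan nuclear receptor, read 9.90, 10.21, 10.14 and 10.32 in SVE and 6.05, 6.23, 4.56 and 5.71 in PE, a difference of -4.502 (SE 0.27, adjusted p 1.00e-10). Gadd45g, a growth arrest gene, differed by -2.11 and Btg1, a relative of Btg2, by 2.71. Btg1 read 9.96, 8.79, 8.92 and 9.23 in SVE and 11.94, 11.70, 12.16 and 11.95 in PE, so it rose where Btg2 fell. Nr4a1, named after its values were seen because the member list holds an unmatched symbol like it, read 8.49, 8.15, 8.43 and 8.45 in SVE and 9.56, 9.43, 8.87 and 9.46 in PE, 0.95 higher (SE 0.12, adjusted p 1.94e-06), the opposite direction to Nr4a3.

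Of 11 further AP-1 and ATF genes, 4 were higher and 2 were lower, beside 62.1% of all tested genes called, with Mafk at 0.94, Atf2 at 0.43 and Fosl2 at -1.02. Of 11 MAPK phosphatases and feedback genes, 2 were higher and 5 were lower. Dusp4, a nuclear MAPK phosphatase, read 8.43, 9.25, 9.02 and 9.52 in SVE and 5.59, 5.20, 3.96 and 5.41 in PE, a difference of -4.01 (SE 0.32, adjusted p 5.14e-09). Spred2 (-0.90) and Dusp5 (-0.81) were lower too. Of 16 serum response and MAPK pathway genes, 6 were higher and 3 were lower, with Mapk3, which encodes ERK1, at 1.34 and Rps6ka1 at 0.64.

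Of 7 Myc partners and relatives, 2 were higher and 2 were lower, beside 62.1% of all tested genes called. Mycl1, which encodes L-Myc, read 10.16, 7.65, 7.72 and 7.90 in SVE and 11.73, 12.16, 11.77 and 11.93 in PE, 3.54 higher (SE 0.47, adjusted p 3.45e-06), while Myc fell. Max was 0.21 higher and Mxi1, a Max partner that opposes Myc, was lower by -0.46. In mNKX3.1+UTY_sh against mNKX3.1, Nr4a3 differed by 4.499, Dusp4 by 4.06, Btg1 by -2.87, Mycl1 by -3.46, Dnaja4 by -2.27 and Cryab by 2.13, each called and in the opposite direction to PE against SVE.

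**Figure D5:**
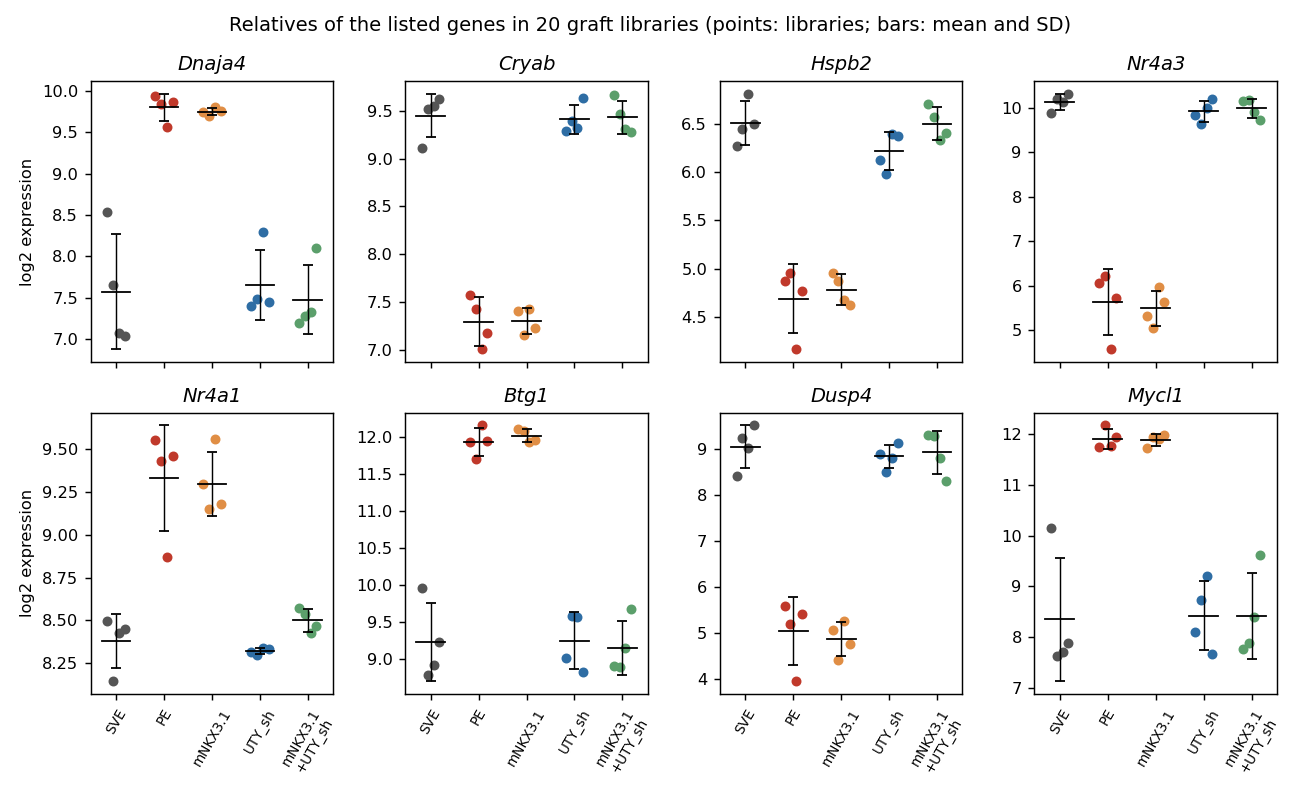
Log2 expression (y axis, own scale per gene) of 8 chaperone and immediate early relatives in the 20 libraries by group (x axis); points are libraries, bars the mean and SD of 4 libraries. Dnaja4, Nr4a1, Btg1 and Mycl1 are high in PE and mNKX3.1, Cryab, Hspb2, Nr4a3 and Dusp4 are low there, and UTY_sh and mNKX3.1+UTY_sh overlap SVE for each gene.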

How the data were processed

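Poly-A RNA of grafts was read from 20 TruSeq libraries by Illumina sequencing, per the labels' protocols. Tools named in the submitters' processing notes are TopHat2 2.0.4, Cufflinks 2.0.2, DESeq and bcl2fastq 1.8.4, and the build is mm9. The counting, the annotation and any step for rat reads are not stated in those notes. The authors deposited 1 log2 value per gene and library. For a range of high values, 822 to 905 per library, antilogs were whole multiples of a unit once a fitted offset was taken off. That unit gave the depths, which are approximate. Low values are compressed towards a floor, so differences of low genes are understated.

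Genes with a value of at least 5 in at least 4 libraries were kept. limma 3.58.1 in R 4.3.3 fitted 1 mean per group over all 20 libraries with a variance trend, and p-values were adjusted by Benjamini-Hochberg over all 13456 genes within each of 7 comparisons. Groups share 1 estimate of the spread. The code was tested on simulated data. The members and lists were chosen with earlier results of these data known. Values in every library are given for up to 5 called members of each list with the largest differences per comparison and for the 3 of each list with the widest range within a group. From each other list the up to 3 called genes with the smallest p in PE against SVE are named, and some genes that this selects are not reported here. No 2 libraries were identical. Alternatives were other filters, median centring, quantile normalisation, no variance trend, a fit of the compared groups alone and leaving out each library. Promoter windows come from RefSeq (GRCm38.p6), and no other coordinates are given because the table was made on mm9.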

Additional observations from a re-analysis of the deposited data

Results flagged for a closer look

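In 6 of 165 pairs of a tested member and a group (3.64%, where chance gives about 5%), 1 of the 4 libraries stood far from the others, by Dixon's test. Hsp90ab1 read 13.9 in SVE library 1, above 13.48 to 13.51 in the others. Dnajb1 read 9.14 in UTY_sh library 3, above 8.67 to 8.75, and Hspb8 read 9.69 in mNKX3.1 library 3, above 9.53 to 9.55. Low values were 8.08 for Hspa1b in mNKX3.1 library 1 (others 8.64 to 8.72), 9.65 for Bag3 in UTY_sh library 1 (others 9.94 to 9.95) and 8.93 for Hsf1 in PE library 1 (others 9.08 to 9.11).

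The difference that goes with the hairpin was not equal with and without the construct, by the limma test of the interaction, for 14 members. It was -1.86 for Hsph1, -1.02 for Hsp90ab1, -0.96 for Hspa8, -0.75 for Hspd1, -0.67 for Stip1, -0.59 for Chordc1, -0.57 for Hspe1, -0.49 for Hspa4, -0.47 for Hsp90aa1 and -0.21 for Ahsa1. It was 0.54 for Bag3, 0.29 for Fkbp4, 0.49 for Btg2 and 0.33 for Myc. The calls of Chordc1, Ahsa1 and Btg2 were lost in 9, 7 and 6 alternatives, with adjusted p up to 0.0838, 0.0650 and 0.0721.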

How the results depend on the processing

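No paired analysis was possible because the labels give no replicate numbers. Over the alternatives run, none of the tested differences called in a comparison with calls or in the interaction changed sign, and calls were lost in 71 of 1100 refits. Scaling moved the median over all genes by at most 0.012. Small counts of members moved. The stricter filter, a value of at least 7 in at least 4 libraries, removed Ier3, whose highest value was 6.995. Its loss from the counts with that filter is therefore no lost call. In PE against SVE the higher immediate early genes were 1 with the stricter filter and with the compared groups alone, and 1 to 2 without single libraries, and the lower heat shock genes were 1 with the compared groups alone (where Fkbp4, Chordc1 and Atf3 lost their calls) and 1 to 3 without single libraries. In mNKX3.1 against SVE the higher immediate early genes were 1 with the stricter filter and without the 3 Pbsn-rich libraries, and 0 to 2 without single libraries. In mNKX3.1+UTY_sh against mNKX3.1 the lower immediate early genes were 1 with no filter, quantile normalisation, no variance trend and without the 3 Pbsn-rich libraries, and 0 to 1 without single libraries. In the interaction the higher immediate early genes were 4 with quantile normalisation and with the compared groups alone, and 1 to 3 without single libraries. Its lower ones were 1 with quantile normalisation, no variance trend and without the 3 Pbsn-rich libraries, and 0 to 1 without single libraries. Fosb and Egr2, near the floor, were compared only with no filter. The 1 lower gene with no filter in mNKX3.1+UTY_sh against mNKX3.1 was not a tested member, so it was Fosb or Egr2. Fosb read 4.31 to 4.81 in mNKX3.1 and 3.71 to 4.24 in mNKX3.1+UTY_sh, without overlap (means 4.56 and 3.95). Egr2 read 3.88 to 4.37 and 3.87 to 4.06, with overlap (means 4.11 and 3.97). The larger difference was thus that of Fosb. Differences at these levels are compressed. The cause of the moves not explained by a filter was not tested.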
